A study of Mus musculus with 20 samples.

Results

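The 6 anti-apoptotic members of the Bcl2 family measured here are Bcl2, Bcl2l1 (whose main protein is Bcl-xL), Bcl2l2 (Bcl-w), Mcl1, Bcl2a1b and Bcl2a1d. They were chosen by gene symbol and are 6 of the 24315 genes in each of 2 deposited expression tables. The question was which survival gene holds the largest share of the family's RNA in each genotype and cell type, and how each member differs between genotypes. RNA came from bone marrow LSK cells (Lin-Sca1+c-Kit+, a fraction that holds stem and multipotent progenitor cells) and from megakaryocytic-erythroid progenitors (MEP) of the same C57BL/6 mice. Of the 10 libraries of each cell type, 3 were WT, 3 Dnmt3a-/-, 2 Bcor-/- and 2 Bcor-/-Dnmt3a-/-, called the double knockout below. WT mice carried neither targeted deletion. The deletions used Mx1-Cre, an interferon-inducible Cre that is switched on with pIpC and acts in hematopoietic cells and in other tissues, and the Bcor deletion removed part of the gene. The mice of the double knockout cohort developed acute erythroid leukemia, Dnmt3a deletion was described as partial in the single knockout, and 1 Bcor-/- library of each cell type was made from 2 pooled mice. The labels give no age. Libraries of one genotype came from separate mice.

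Anti-apoptotic Bcl2 proteins hold the pore-forming effectors Bax and Bak1 in check at the mitochondrial outer membrane, and BH3-only proteins such as Bcl2l11 (Bim), Bmf and Pmaip1 (Noxa) bind the survival proteins and release the effectors. Mcl1 is a short-lived protein that hematopoietic stem cells need for survival. Bcl2l1 is required for survival of late erythroblasts and platelets and lies downstream of erythropoietin receptor and Stat5 signalling. Bcl2 is best known from lymphocytes, Bcl2l2 is broadly expressed, and the Bcl2a1 genes are targets of NF-kB in myeloid cells and lymphocytes. RNA levels say nothing of protein, and Mcl1 protein in particular is controlled by its turnover.

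Bcl2a1b and Bcl2a1d are near-identical copies on mouse chromosome 9, so that short reads are hard to assign to one of them. Their coding sequences in the GENCODE annotation of GRCm38 are both 519 bases long and differ at 6 positions, which makes them 98.8% identical. The longest stretch without a difference runs over 217 bases, from coding base 95 to 311. Another copy, Bcl2a1a, differs from Bcl2a1d at 7 positions, with a shared stretch of 314 bases. The first 120 coding bases are shown because they hold 3 of the 6 differences between Bcl2a1b and Bcl2a1d, which are the bases in capitals.
Bcl2a1b: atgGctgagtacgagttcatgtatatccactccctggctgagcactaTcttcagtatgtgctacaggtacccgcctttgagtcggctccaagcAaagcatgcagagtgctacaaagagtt
Bcl2a1d: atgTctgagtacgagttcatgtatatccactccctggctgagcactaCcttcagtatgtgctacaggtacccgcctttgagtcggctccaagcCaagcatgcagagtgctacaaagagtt
From the first to the second sequence, with positions counted from 1 at the start codon, these differences are G4T, T48C and A94C. A read inside a shared stretch fits both genes equally.

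RefSeq promoter windows of GRCm38.p6, from 250 bases before to 50 bases after an annotated start, were found for all 6 members, with 3 windows for Bcl2l1 and 1 for each other member. They were searched on both strands for AGATAA or TGATAA (the GATA factor motif), TTCNNNGAA (the STAT motif) and GAGGAAGT (an ETS motif of the PU.1 type). A GATA match was found in 1 of the 8 windows and an ETS match in 2, and no window held the STAT letters. Of all 32851 RefSeq windows of 300 bases, 18.6% held a GATA match, 8.30% a STAT match and 3.20% this ETS match, so these counts describe the windows and show no binding. The windows with a match are shown because they belong to the members that differed in the double knockout of both cell types (Bcl2l1, Bcl2a1b) and to the near-copy Bcl2a1d. The GATA letters of Bcl2l1 begin 41 bases before the start in its window at chr2:152828440-152828739 (minus strand), and the ETS letters begin 148 bases before the start of Bcl2a1b (chr9:89199023-89199322, plus strand) and 104 bases before that of Bcl2a1d (chr9:88731801-88732100, minus strand). Capitals mark the matches, and all 3 are printed 5′ to 3′ along the gene.
Bcl2l1: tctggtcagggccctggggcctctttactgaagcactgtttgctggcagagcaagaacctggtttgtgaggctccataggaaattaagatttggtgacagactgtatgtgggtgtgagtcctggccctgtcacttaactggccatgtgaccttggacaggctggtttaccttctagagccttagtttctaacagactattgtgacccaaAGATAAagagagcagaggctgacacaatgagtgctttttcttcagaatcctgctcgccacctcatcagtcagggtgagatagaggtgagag
Bcl2a1b: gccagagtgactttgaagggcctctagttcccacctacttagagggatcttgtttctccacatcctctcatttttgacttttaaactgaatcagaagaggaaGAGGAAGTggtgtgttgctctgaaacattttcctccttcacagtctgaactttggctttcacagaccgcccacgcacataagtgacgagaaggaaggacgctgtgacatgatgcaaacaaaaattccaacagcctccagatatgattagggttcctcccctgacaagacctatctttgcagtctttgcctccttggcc
Bcl2a1d: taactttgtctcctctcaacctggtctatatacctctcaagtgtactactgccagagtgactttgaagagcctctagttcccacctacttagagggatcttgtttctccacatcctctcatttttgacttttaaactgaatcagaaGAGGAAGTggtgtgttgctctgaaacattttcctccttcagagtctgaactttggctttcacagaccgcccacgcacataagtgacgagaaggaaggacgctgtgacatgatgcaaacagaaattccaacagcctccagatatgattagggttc
The windows of Bcl2a1b and Bcl2a1d share an identical run of 84 bases. The submitters' processing notes name mm9, an older build, so the coordinates given here are those of GRCm38 and not of the deposited tables.

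In the GENCODE annotation of GRCm38, 2 of the 6 members lie apart from other genes and 4 overlap another gene model. Bcl2l1 (chromosome 2, 152780668 to 152831728, minus strand) and Mcl1 (chromosome 3, 95658788 to 95663176, plus strand) overlap no other gene. Bcl2 (chromosome 1, 106538178 to 106714274, minus strand) and Bcl2a1d (chromosome 9, 88723285 to 88731914, minus strand) each overlap an antisense gene, and Bcl2 also small models on its own strand. Bcl2l2 (chromosome 14, 54883377 to 54888234, plus strand) and Bcl2a1b (chromosome 9, 89199209 to 89207827, plus strand) each share their strand with an overlapping protein-coding model. Overlap was judged by whole gene spans and not by exons. The annotation and strand setting of the counting are not given in the sources used here. Whether reads of these 4 genes were mixed with those of the overlapping models is therefore not known.

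Levels are given in FPKM as the authors deposited them, fragments scaled by transcript length and by the mapped fragments of the library, so that members can be compared with each other within a library. The summed FPKM of all genes ran from 413482 to 522688 in LSK and from 424662 to 625758 in MEP libraries. The tables hold FPKM and no counts, but low values fall on discrete steps. Taken as steps of 1 fragment, they put the depth of the shallowest library at 0.600 of the deepest in LSK and at 0.621 in MEP. These are estimates from the FPKM scale and no measured depths. The tables were normalized separately, so levels of LSK and MEP are set side by side without a test. The 2 double knockout libraries were less alike than libraries of the other genotypes, with Pearson's r over genes of 0.849 (LSK) and 0.815 (MEP), while every other genotype reached 0.971 or more, so values are given for each of them. Marker levels of the sorted double knockout cells differed from WT. In LSK libraries 8 of 9 stem and progenitor markers fell and all 11 erythroid markers rose, with Kit at a mean of 33.5 FPKM against 161.8 in WT and Cd34 at 21.6 against 582.9. In MEP libraries Kit also fell, from 81.1 to 29.2 FPKM, and 4 of 11 erythroid markers rose while Car1 fell. In such bulk samples a larger share of one cell type and more RNA per cell cannot be told apart. The targeted genes kept gene-level signal in the knockout libraries. Bcor had 29.5 to 32.4 FPKM in WT LSK, 22.4 and 23.2 in Bcor-/- and 24.0 and 37.4 in the double knockout, so that double knockout replicate 2 lay above WT. In MEP Bcor had 21.3 to 26.9 in WT, 19.5 and 22.4 in Bcor-/- and 19.6 and 26.7 in the double knockout. Dnmt3a had 16.1 to 19.8 FPKM in WT LSK, 11.3 to 16.9 in Dnmt3a-/- and 10.4 and 10.9 in the double knockout, and in MEP 5.49 to 6.64, 2.56 to 5.40, and 6.85 and 3.44. For Dnmt3a, double knockout MEP replicate 1 thus lay above every WT MEP library. Gene-level FPKM also count exons outside a deleted part, so the genotype of each library is taken from its label and was not checked by these values.

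Mcl1 was the most abundant member in 19 of the 20 libraries and had the highest mean share in all 8 groups. In WT LSK it held 78.3% ± 4.34 (SD, n = 3) of the summed FPKM of the 6 members, in Dnmt3a-/- LSK 85.7% ± 0.470 (n = 3), in Bcor-/- LSK 73.0% ± 1.20 (n = 2) and in double knockout LSK 67.4% ± 6.66 (n = 2). In MEP its share was 78.1% ± 2.09 in WT, 81.6% ± 0.750 in Dnmt3a-/-, 77.8% ± 1.58 in Bcor-/- and 52.4% ± 24.1 in the double knockout. Outside the double knockout, Mcl1 exceeded the second member by 5.65 to 13.4 times in LSK and by 7.56 to 12.5 times in MEP. In double knockout MEP the mean hides a change of order, because replicate 1 had Mcl1 at 69.4% and Bcl2l1 at 13.0%, while replicate 2 had Bcl2l1 at 60.1% and Mcl1 at 35.4%. Bcl2l1 led the family by 1.70 times in that library. The order below the leading member also changed with the genotype. Bcl2 was second in all 8 LSK libraries that were not double knockout, with 1.98 to 2.45 times the FPKM of Bcl2l1, and Bcl2l1 was second in both double knockout LSK libraries, with 17.6% against 6.96% for Bcl2 in replicate 1 and 9.28% against 8.93% in replicate 2. In the 8 MEP libraries outside the double knockout the second place was held by Bcl2l2 in 4 libraries, by Bcl2 in 3 and by Bcl2l1 in 1.

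**Figure D1:**
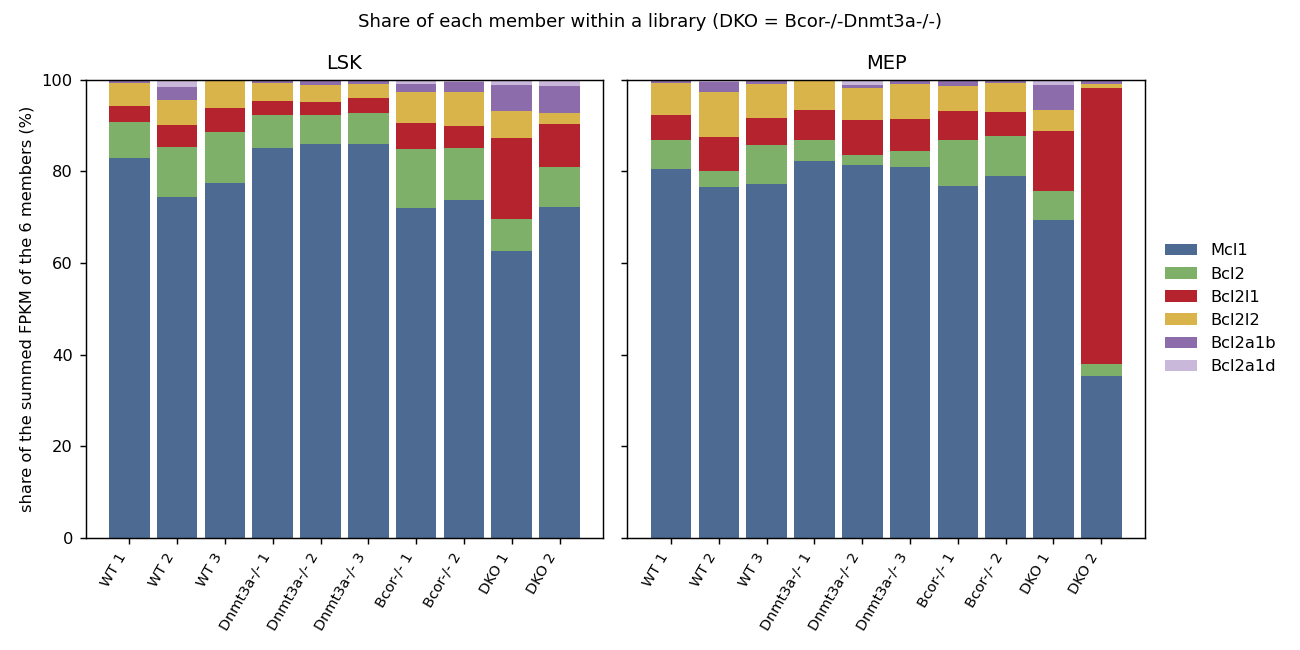
Share of each member in the summed FPKM of the 6 members (percent, vertical axis) in each LSK (left) and MEP (right) library, where DKO is the double knockout. Mcl1 holds 62.7% to 86.1% in every library except double knockout MEP replicate 2, where Bcl2l1 holds 60.1%.

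The ratio of Bcl2l1 to Mcl1 in a library does not depend on how the table was scaled. It was 0.0325 to 0.0775 in the 8 LSK libraries outside the double knockout and 0.280 and 0.129 in double knockout LSK. In MEP it was 0.0664 to 0.0991 in the 8 libraries outside the double knockout and 0.188 and 1.70 in the double knockout. The double knockout libraries of both cell types therefore lay above all others of their cell type. Between genotypes, shares were compared with two-sided exact permutation tests, which cannot give a p below 0.2 with 2 libraries against 3 or below 0.1 with 3 against 3. In double knockout LSK the Bcl2l1 share was 13.4% against 4.51% in WT and in double knockout MEP 36.6% against 6.28%, each without overlap at an exact p of 0.2, the smallest this design allows. The share of Mcl1 lay below all WT libraries in both (exact p = 0.2 in each), and it also did in Bcor-/- LSK. A lower share need not be a lower level, since mean Mcl1 in double knockout MEP was 148.1 FPKM against 69.9 in WT. In LSK it was 217.1 FPKM in the double knockout (125.2 and 309.0) and 119.9 in Bcor-/-, against 171.9 in WT. With Bcl2a1b and Bcl2a1d left out of the sum, the Mcl1 share of double knockout LSK overlapped that of WT, at 72.5% against 79.7% (exact p = 0.4), while in MEP it stayed below all WT libraries. In Dnmt3a-/- LSK the shares of Bcl2, Bcl2l1 and Bcl2l2 lay below and that of Mcl1 above every WT library (exact p = 0.1 each, the smallest possible with 3 against 3). In Dnmt3a-/- MEP the Mcl1 share also lay above every WT library (81.6% against 78.1%, exact p = 0.1), while the other shares overlapped.

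Because LSK and MEP were sorted from the same mice, the composition of the family could be compared within 10 pairs of libraries. Bcl2 took a larger share in LSK than in MEP in 10 of 10 pairs, with means of 9.001% and 5.64% and a mean difference of 3.36 percentage points ± 2.12 (SD). The two-sided exact sign-flip test gave p = 0.00195, the smallest that 10 pairs allow, and 0.0117 after Benjamini-Hochberg adjustment over the 6 members. Bcl2l1 took a larger share in MEP in 9 of 10 pairs, with means of 5.99% in LSK and 12.5% in MEP, but the difference did not pass (exact p = 0.0625, adjusted 0.185). The exception was double knockout replicate 1, with 17.6% in LSK and 13.0% in MEP. Without the double knockout mice, Bcl2l1 was larger in MEP in 8 of 8 pairs, 6.45% against 4.13%, and passed (exact p = 0.00781, adjusted 0.0234). The difference of Mcl1 did not pass, with 77.3% in LSK and 74.0% in MEP (exact p = 0.590) and a larger share in LSK in 6 of 10 pairs. Neither did that of Bcl2l2, Bcl2a1b or Bcl2a1d, whose adjusted exact p lay between 0.185 and 0.211.

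**Figure D2:**
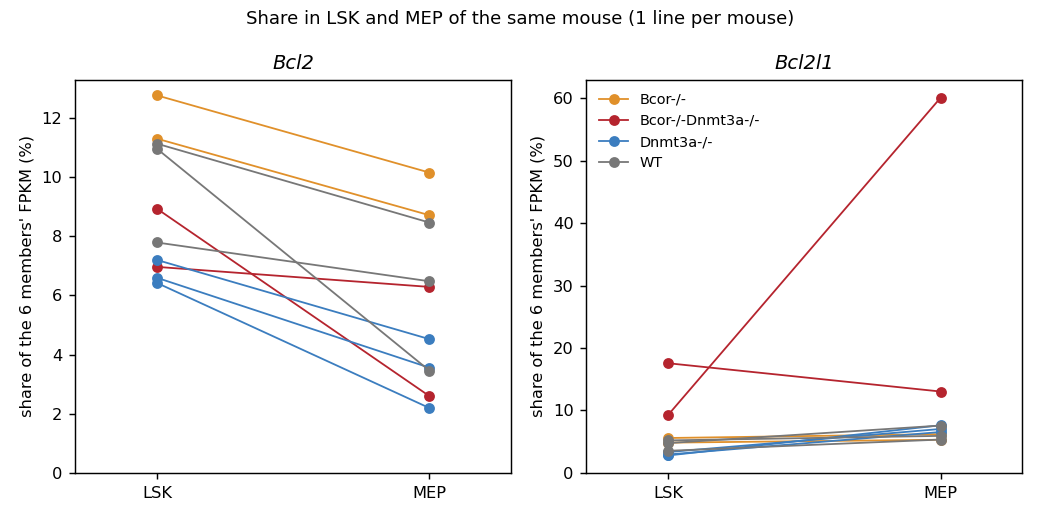
Share of Bcl2 (left) and Bcl2l1 (right) in the summed FPKM of the 6 members, percent, in LSK and MEP of the same mouse. Each line joins the 2 libraries of 1 mouse (1 Bcor-/- line is a pool of 2 mice), and the Bcl2 share is lower in MEP in all 10.

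Bcl2l1 was higher in the double knockout than in each of the other 3 genotypes, in LSK and in MEP. In LSK it had 9.08, 9.39 and 10.5 FPKM in the 3 WT libraries, 8.73, 9.77 and 11.5 in Dnmt3a-/-, while the Bcor-/- libraries had 9.60 and 7.62 and the double knockout libraries 35.1 and 39.7. In MEP it had 4.69, 6.17 and 5.89 FPKM in WT, 6.64, 6.45 and 6.50 in Dnmt3a-/-, while the Bcor-/- libraries had 6.40 and 5.31 and the double knockout libraries 22.9 and 295.6. Both double knockout libraries of each cell type were above every other library of that cell type, while the other 3 genotypes spanned 7.62 to 11.5 FPKM in LSK and 4.69 to 6.64 in MEP. The fitted difference from WT in double knockout LSK was 1.85 on the log2(FPKM + 1) scale (SE 0.154), a rise that passed limma's moderated test with a Benjamini-Hochberg adjusted p = 7.83e-05. In double knockout MEP Bcl2l1 rose by 3.68 (SE 0.814, adjusted p = 0.0104). The size of that difference depends on the library, since it was 1.87 without replicate 2 (limma adjusted p = 0.000127) and 5.50 without replicate 1. Against the single knockouts Bcl2l1 rose by 2.004 over Bcor-/- and 1.81 over Dnmt3a-/- in LSK, and by 3.62 and 3.48 in MEP, at adjusted p of at most 0.0205. The difference from Bcor-/- in MEP was not called when only these 2 genotypes were fitted (limma adjusted p = 0.249). In the single knockouts themselves it did not pass, with differences from WT of -0.15 (95% interval -0.50 to 0.19) in Bcor-/- LSK and 0.04 (-0.27 to 0.35) in Dnmt3a-/- LSK. In MEP the intervals were wide, -1.80 to 1.92 in Bcor-/- and -1.46 to 1.86 in Dnmt3a-/-, since all genotypes share 1 estimate of the spread.

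Erythroid marker genes moved with Bcl2l1 in part of the libraries. The summed FPKM of the 11 erythroid markers was 467.8 to 617.8 in WT LSK and 6559 and 21470 in double knockout LSK replicates 1 and 2. In MEP it was 4961 to 7111 in WT, 5989 in double knockout replicate 1 and 72578 in replicate 2. In double knockout MEP replicate 1, whose Bcl2l1 was 22.9 FPKM against at most 6.17 in WT, the marker sum lay within the WT range but the single markers did not. Of the 11 markers 4 lay above all WT libraries there, 2 within their range and 5 below. Alas2, the heme synthesis enzyme of red cells, had 88.3 FPKM against 4.45 to 15.2 in WT, and Slc4a1, the band 3 anion exchanger, 123.0 against 11.7 to 32.7. Hba-a1 had 1055 against 109.7 to 279.8 and Hbb-b1 1854 against 97.4 to 264.0. Car1, the largest term of the WT sum, had 1475 against 2686 to 3713, and Car2, Gata1, Klf1 and Epor were also below WT. In double knockout LSK the replicate with the lower marker sum had 35.1 FPKM of Bcl2l1 and that with the higher sum 39.7. Without Hba-a1 and Hbb-b1 the sum was 3080 and 17374 in the double knockout MEP libraries against 4742 to 6567 in WT. In that second MEP library Hba-a1 has 55204 FPKM while Hbb-b1 is listed at 0. An exact 0 in such a table can be a failed estimate, and the sum of 72578 and the count of erythroid markers called in double knockout MEP take it as listed. The part of these marker genes' cells in the Bcl2l1 level of the double knockout libraries was not tested. In Bcor-/- LSK the erythroid sum was 899.2 to 1362 and 5 of 11 markers rose, with Bcl2l1 at 9.60 and 7.62 FPKM.

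**Figure D3:**
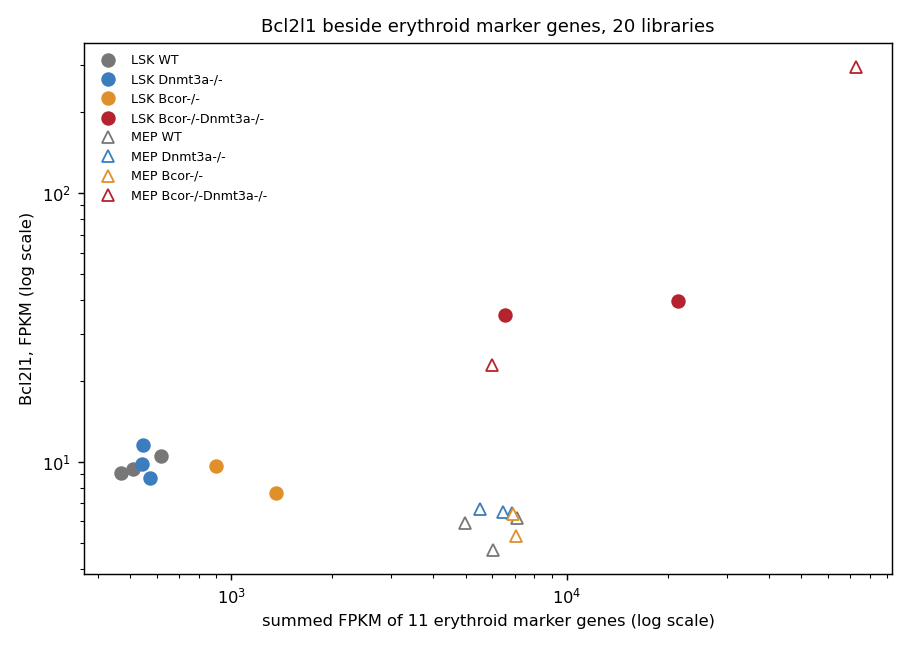
Bcl2l1 (FPKM, log axis) against the summed FPKM of 11 erythroid marker genes (log axis) in the 20 libraries, filled circles LSK and open triangles MEP. Double knockout MEP replicate 1 lies among the MEP libraries outside the double knockout on the horizontal axis. On the vertical axis it lies above them, at 22.9 FPKM, although Alas2 and 3 other markers of the sum were higher in it than in any WT MEP library.

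Mcl1 differed between genotypes in another pattern. In LSK it had 212.9, 146.3 and 156.4 FPKM in WT, 252.6, 300.7 and 297.8 in Dnmt3a-/-, while the Bcor-/- libraries had 123.9 and 116.0 and the double knockout libraries 125.2 and 309.0. All Dnmt3a-/- libraries were above and both Bcor-/- libraries below every WT library, and the 2 double knockout libraries lay on either side of the WT range. Mcl1 passed in Dnmt3a-/- LSK, with a difference of 0.73 (SE 0.289), but only unadjusted, since its limma adjusted p was 1. The call was lost with the replicate block (0.73), without WT replicate 2 (0.63) or 3 (0.68), or without Dnmt3a-/- replicate 2 (0.69) or 3 (0.70). It did not pass in Bcor-/- LSK (-0.50, SE 0.323, limma adjusted p = 0.384), where quantile normalization called it lower (-0.68, limma adjusted p = 0.176), or in double knockout LSK (0.21, 95% interval -0.52 to 0.94). The double knockout value depends on which library is kept, -0.43 without replicate 2, not called, and 0.86 without replicate 1, where Mcl1 was called higher (limma adjusted p = 0.00741). In MEP Mcl1 had 70.7, 62.3 and 76.8 FPKM in WT, 83.5, 68.8 and 74.7 in Dnmt3a-/-, while the Bcor-/- libraries had 79.1 and 78.9 and the double knockout libraries 122.0 and 174.2. There both double knockout libraries were above all others, and Mcl1 rose by 1.06 (SE 0.163, limma adjusted p = 0.00235), and against Bcor-/- by 0.88 and against Dnmt3a-/- by 0.94 (limma adjusted p = 0.0104 and 0.00296).

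Bcl2 was steady in LSK outside the double knockout and varied in MEP. In LSK it had 19.98, 21.5 and 22.5 FPKM in WT, 21.3, 22.5 and 22.8 in Dnmt3a-/-, while the Bcor-/- libraries had 21.9 and 17.7 and the double knockout libraries 13.9 and 38.2. The 2 double knockout libraries fell below and above the whole range of the other 8, and the difference from WT was 0.12 (95% interval -0.61 to 0.84). As for Mcl1, the higher value was that of replicate 2, and the difference was -0.58 without replicate 2 and 0.82 without replicate 1. Without replicate 1 Bcl2 was called higher (limma adjusted p = 0.00146), and without replicate 2 its fold was just under the threshold (limma adjusted p = 0.0111). In MEP Bcl2 had 5.69, 2.81 and 8.40 FPKM in WT, 4.58, 1.85 and 3.28 in Dnmt3a-/-, while the Bcor-/- libraries had 10.5 and 8.70 and the double knockout libraries 11.04 and 12.8. Both the Bcor-/- and the double knockout libraries were above every WT library. Bcl2 passed in the double knockout (1.05, SE 0.386) but not after adjustment (limma adjusted p = 0.0665), and in Bcor-/- it did not pass (0.76, SE 0.386, limma adjusted p = 0.986). It was called in Bcor-/- MEP with the replicate block (0.93, limma adjusted p = 0.882), with 1 variance per genotype (limma adjusted p = 0.277) and without WT replicate 3 (1.06, limma adjusted p = 0.691). The double knockout call was lost without WT replicate 2 (0.70) or without double knockout replicate 2 (0.96), and with 1 variance per genotype. Without WT replicate 2 Bcl2 was called lower in Dnmt3a-/- MEP (-0.96, limma adjusted p = 0.885). Against Dnmt3a-/- the double knockout was higher by 1.66 (limma adjusted p = 0.0107), a call that was lost with 1 variance per genotype.

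Bcl2l2, a broadly expressed survival gene, ran from 10.3 to 12.8 FPKM over all 10 LSK libraries and from 4.32 to 8.15 over all 10 MEP libraries. In MEP the double knockout libraries were the 2 extremes. Its groups overlapped in all 10 comparisons and none passed, with differences between the double knockout and WT of -0.09 in LSK (95% interval -0.38 to 0.20) and -0.21 in MEP (-0.73 to 0.31). Without double knockout replicate 1 it was called lower in double knockout MEP (-0.60, limma adjusted p = 0.0216).

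Outside the double knockout, Bcl2a1b and Bcl2a1d stayed at or below 5.49 FPKM in both cell types. Bcl2a1b had 0.967, 5.49 and 0 FPKM in WT LSK, 1.55, 3.74 and 2.52 in Dnmt3a-/-, while the Bcor-/- libraries had 3.14 and 3.19 and the double knockout libraries 11.2 and 25.0. In MEP it had 0.698, 1.69 and 0.997 FPKM in WT, 0, 0.512 and 0.948 in Dnmt3a-/-, while the Bcor-/- libraries had 1.22 and 0.433 and the double knockout libraries 9.61 and 4.42. The double knockout libraries were above all others in both cell types. Bcl2a1b rose by 2.93 in double knockout LSK (SE 0.677, limma adjusted p = 0.0113) and by 1.86 in double knockout MEP (SE 0.410, limma adjusted p = 0.0103). In MEP Bcl2a1b passed the filter of a mean of at least 1 FPKM only through the double knockout, since its mean was 2.05 over all 10 libraries and 0.812 over the 8 others. Both calls were lost with 1 variance per genotype (limma adjusted p = 0.256 and 0.315). The WT LSK libraries were uneven, and without WT replicate 2 the difference was 3.66, and Bcl2a1b was then also called higher in Bcor-/- LSK (1.57) and Dnmt3a-/- LSK (1.32). Bcl2a1d had 0.917, 3.13 and 0.389 FPKM in WT LSK, 0.590, 0.592 and 0.532 in Dnmt3a-/-, while the Bcor-/- libraries had 1.62 and 0.930 and the double knockout libraries 2.44 and 6.10. Its groups overlapped, since WT replicate 2 exceeded double knockout replicate 1. Bcl2a1d passed (1.15, SE 0.469), not after adjustment (limma adjusted p = 0.0970), and the call was lost without double knockout replicate 2 (0.63), WT replicate 1 (1.05) or WT replicate 3 (0.81). It was also lost, at an unchanged difference, without any 1 of the 3 Dnmt3a-/- libraries and when only these 2 genotypes were fitted. The same held with 1 variance per genotype, and the replicate block (0.97) lost the call too. In MEP Bcl2a1d was listed at 0 in 4 of 10 libraries, reached at most 1.996 FPKM (double knockout replicate 1) and was too low to be tested.

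Few fragments stand behind these low values. Values were scaled to the estimated depth of the deepest library, and 1 step was then fitted per gene and cell type. It was chosen as the largest step that left every value of up to 20 steps within 0.15 of a whole multiple. That all such values did so is therefore fixed by the choice and tests nothing (7 of 7 Bcl2a1b and 10 of 10 Bcl2a1d values in LSK, and 8 of 8 and 6 of 6 in MEP). The counts of steps below rest on this fitted step. In these steps Bcl2a1b counted 3, 15 and 0 in WT LSK against about 39 and 66 in the double knockout, and 2, 7 and 4 in WT MEP against about 32 and 14. Bcl2a1d counted 3, 9 and 1 in WT LSK against 9 and 17 in the double knockout. Among the values of up to 20 steps the largest distance from a whole step was 0.0744, while larger values lay up to 0.239 away and are given as about. A step may be 1 read or an even share of a read that fits several copies. Bcl2a1a was listed at the same value as Bcl2a1d in 3 of 10 LSK libraries, while it was listed at 0 in double knockout LSK replicate 2, where Bcl2a1d had 6.10. Bcl2a1c and the oocyte gene Bcl2l10 were listed at 0 in all 20 libraries. Which of the near-identical copies a value belongs to is therefore uncertain.

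Markers of cells that are known to express Bcl2a1 genes also moved in the double knockout. In LSK the summed FPKM of 6 B cell markers was 39.5 to 81.6 in WT and 2422 and 1121 in the double knockout, with 5 of 6 called higher. Of these 5, Pax5 and Ebf1 passed the filter of a mean of at least 1 FPKM only through the double knockout. Their means were 0.612 and 0.782 FPKM in WT, 1.72 and 1.48 in Dnmt3a-/- and 0.245 and 0.197 in Bcor-/-. The sum of 5 macrophage markers was 32.3 to 224.8 in WT and 1277 and 45.2 in the double knockout, with none of 5 called. That of 10 neutrophil and granulocyte markers was 3543 to 13367 in WT and 8258 and 8421 in the double knockout, with 1 called higher and 1 lower. Of the 2 double knockout LSK libraries, Bcl2a1b was higher in replicate 2, which had the lower B cell and macrophage sums. In MEP the B cell sum was 20.5 to 111.3 in WT and 1867 and 121.2 in the double knockout (5 of 6 higher), the macrophage sum 2.91 to 3.58 and then 662.6 and 15.5 (4 of 5 higher), and the neutrophil sum 313.0 to 775.7 and then 6797 and 15276 (5 of 10 higher). There Bcl2a1b was higher in replicate 1, which had the higher B cell and macrophage sums and the lower neutrophil sum. The 5 macrophage markers together summed to 2.02 to 5.90 FPKM in the MEP libraries outside the double knockout. At least 1 of the 4 called in MEP therefore passed the filter only through the double knockout. No gene of these 3 lists was at 0 in every library of a group. The part of these cells in the Bcl2a1 levels was not tested. Of the remaining lists, in LSK the double knockout had 4 of 6 tested megakaryocyte markers and all 5 mast cell and basophil markers called lower, and of 5 T and NK cell markers 4 were called higher and 1 lower. Of those 4, Cd3e, Cd3g and Cd2 passed the filter only through the double knockout. Their LSK means were at most 0.886 FPKM in each other genotype. In MEP 2 megakaryocyte markers were called lower, 1 mast cell marker and 3 T and NK cell markers higher.

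**Figure D4:**
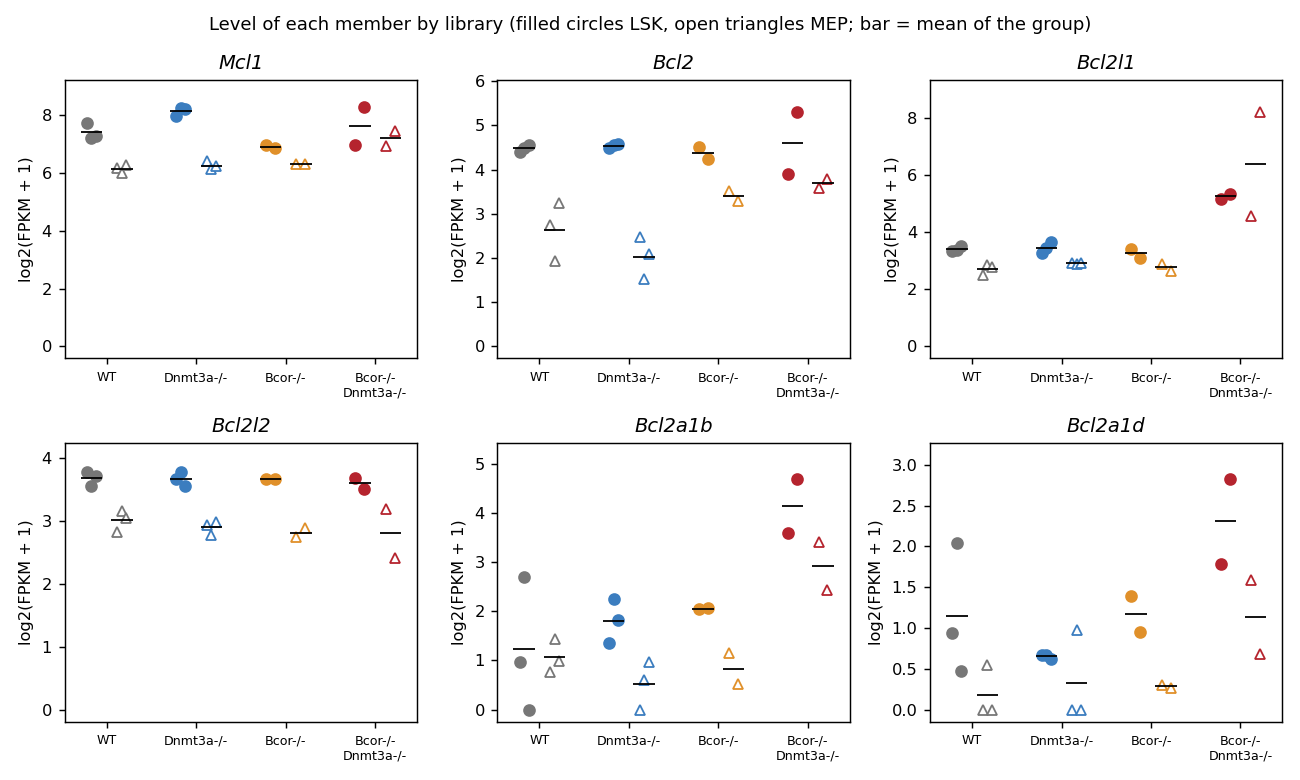
Level of each member, log2(FPKM + 1), in every library by genotype, filled circles LSK and open triangles MEP, with black bars for group means. Bcl2l1 and Bcl2a1b are the members whose double knockout libraries lie above all others in both cell types, and for Bcl2l2 the groups overlap in both.

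Set against all genes, the counts of members read as follows. Calls used a fold change of more than 1.5 on the log2(FPKM + 1) scale together with a p below 0.05, as the limits in the study's methods, where no adjustment of the p is named, and the p was taken here as unadjusted. In LSK, 3 of 6 members were called higher in the double knockout against WT (Bcl2l1, Bcl2a1b, Bcl2a1d), beside 28.3% of the 11952 genes tested, in either direction. Against WT, Bcor-/- had none of 6 beside 13.2% of genes, and Dnmt3a-/- had 1 of 6 (Mcl1) beside 0.443%. For these 3 comparisons the adjusted p left 2, 0 and 0 members beside 23.7%, 5.77% and 0% of genes. Against Bcor-/- 2 members were called higher in the double knockout (30.6% of genes), and against Dnmt3a-/- 3 (29.8%), of which 1 and 3 held after adjustment (25.2% and 25.5% of genes). In MEP, 5 members passed the filter of a mean of at least 1 FPKM and 4 were called higher in the double knockout against WT (Bcl2, Bcl2l1, Mcl1, Bcl2a1b), beside 30.9% of 10933 genes. Bcl2a1b, which passed the filter only through the double knockout, is among them, and without it they are 3 of 4. None was called in Bcor-/- (2.76%) or in Dnmt3a-/- (0.412%). With the adjusted p these counts were 3, 0 and 0 beside 25.2%, 0.0640% and 0% of genes. Against Bcor-/- 3 members were called (27.9%) and against Dnmt3a-/- 4 (34.7%), and all of these held after adjustment (20.3% and 30.0%). Both counts again include Bcl2a1b, and without it they are 2 of 4 and 3 of 4. In the fit as described, no member was called lower in any of the 10 comparisons, while quantile normalization called Mcl1 lower in Bcor-/- LSK. Over the 6 members in LSK, the median difference between the double knockout and WT was 0.68, beside 0.02 over all genes.

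**Figure D5:**
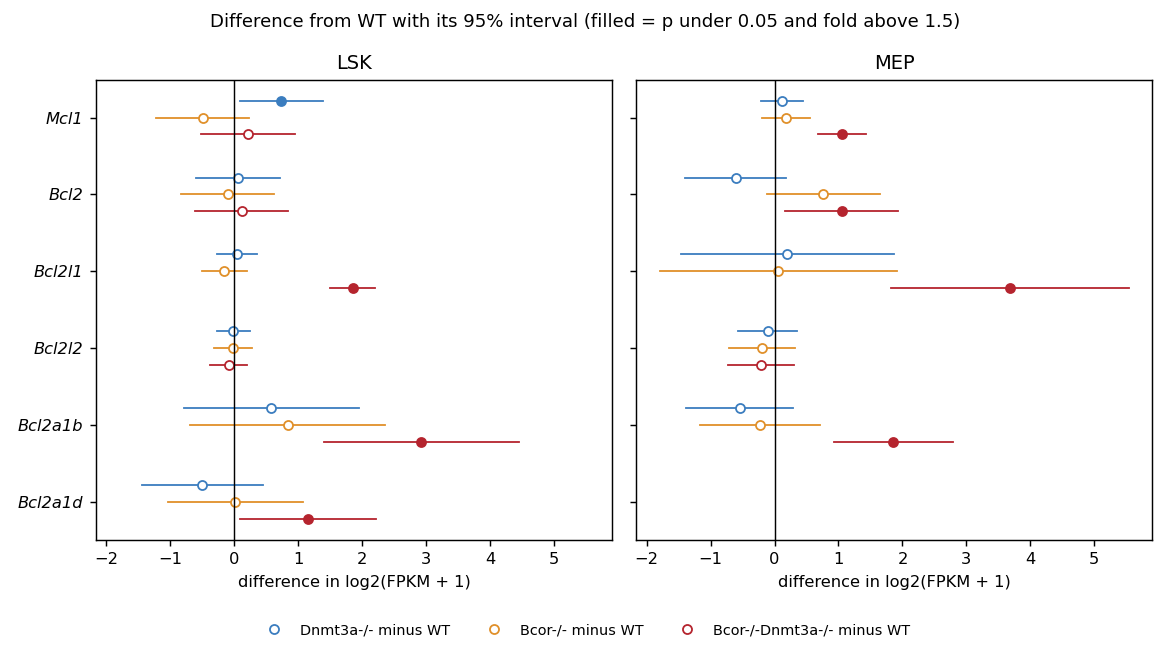
Difference of each knockout genotype from WT in log2(FPKM + 1), with its 95% interval (horizontal lines), for LSK (left) and MEP (right). Filled points passed p under 0.05 and a fold change above 1.5, among them Bcl2l1 at 1.85 in double knockout LSK and 3.68 in double knockout MEP.

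The genotype effects were then compared between cell types on the LSK minus MEP difference of each mouse. In the double knockout, Bcl2l1 and Mcl1 differed more from WT in MEP than in LSK, with effects in LSK minus MEP of -1.83 (SE 0.741) and -0.84 (SE 0.286) that passed unadjusted in limma, among 5 members tested and beside 28.0% of 10773 genes. Neither passed after adjustment (limma adjusted p = 0.104 and 0.0645, beside 18.6% of genes). Without double knockout replicate 2 the difference for Bcl2l1 was -0.11, and without replicate 1 that for Mcl1 was -0.45. The Bcl2l1 call was also lost without any 1 WT mouse (-1.92 to -1.77), and that of Mcl1 without WT replicate 1 (-0.69). In comparisons added after the data were seen, the effect on Mcl1 also differed between cell types in Bcor-/- (difference of effects -0.68, limma adjusted p = 0.259, beside 10.8% of genes) and in Dnmt3a-/- (0.62, limma adjusted p = 0.997, beside 0.873%). The call was lost without any 1 of 5 of the 10 mice for Bcor-/- and of 6 of the 10 for Dnmt3a-/-. After adjustment 0.251% and 0% of genes passed in these 2 comparisons, and no member did.

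The partners of the survival proteins were counted from lists of the pathway. These counts stand beside 28.3% of all genes called in double knockout LSK, 30.9% in double knockout MEP and 13.2% in Bcor-/- LSK, in either direction. Among the 3 pore-forming effectors, Bax rose in double knockout LSK (0.69, limma adjusted p = 0.0118) and none passed in double knockout MEP, where Bak1 differed by -0.58 at a fold just under the threshold. Among 8 BH3-only genes, of which 6 were tested, 3 rose in double knockout LSK and the same 3 rose in MEP, where Bid and Bad fell. Bmf, whose product links detachment from the cytoskeleton to cell death, rose by 2.93 in LSK and 2.34 in MEP. Pmaip1, which binds Mcl1, rose by 2.24 and 1.35, and Bcl2l11 rose by 0.70 and 0.61, in LSK not after adjustment (limma adjusted p = 0.0532). In Bcor-/- LSK the pattern was another, with Bid (0.78), Bad (0.62) and Bak1 (0.62) higher and Bcl2l11 lower (-0.95). Their adjusted p in limma was 0.0264, 0.125, 0.0920 and 0.0466. Granulocyte markers moved with them, since the neutrophil and granulocyte sum was 17750 and 25386 FPKM in Bcor-/- LSK against 3543 to 13367 in WT, and 4 of its 10 genes rose, Mpo (2.68), Elane (3.46), Prtn3 (2.90) and Ctsg (2.80). The stem and progenitor sum was 883.4 and 599.2 against 1159 to 1368 in WT, with 3 of 9 called lower (Flt3, Hlf, Mecom). Of 5 mast cell and basophil markers 3 were called lower, and the T and NK cell sum was 464.7 and 625.6 against 230.7 to 252.0, with 1 of 5 called higher and 1 lower. The part of these cells in the pathway genes' values was not tested. No gene of these 2 lists was called in Dnmt3a-/- cells or in Bcor-/- MEP. Of 4 genes for turnover of Mcl1 protein, the ubiquitin ligase subunit gene Fbxw7 rose in the double knockout of both cell types (0.98 in LSK, 0.68 in MEP) and Btrc in MEP (0.77, limma adjusted p = 0.0771, with 0.44 in LSK, where it did not pass). Of 5 genes of erythropoietin receptor signalling and Gata1, Epor (2.21) and Gata1 (1.93) rose in double knockout LSK and also in Bcor-/- LSK (1.65 and 1.14), where Bcl2l1 did not pass. Stat5a, a transducer of that receptor, fell in the double knockout of LSK (-0.75) and MEP (-0.99), and in MEP Epor and Gata1 did not pass. The lists' median differences in double knockout LSK were 0.64 for the effectors, 0.89 for the BH3-only genes, 0.18 for the turnover genes and 0.46 for the erythropoietin list, beside 0.02 over all genes. In MEP they were -0.31, 0.63, 0.41 and -0.53.

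For the 4 members called in the double knockout that were tested in both cell types, the genes with the most similar pattern were found by the root mean square difference of log2(FPKM + 1), relative to the WT mean of each cell type, over the 20 libraries and 10768 genes. For Bcl2l1 these were Ube2l6 (0.274), Fam214b (0.279) and Cpeb4 (0.310), against 1.43 for Bcl2l1 itself. Ube2l6 had 111.1 and 1566 FPKM at its extremes in double knockout MEP against 40.7 to 53.7 in WT MEP. It was picked for its likeness over these same libraries, so this is no separate observation. For Bcl2a1b they were Tlr1 (0.589), Gas7 (0.628) and Fgr (0.645), with 1.29 for Bcl2a1b itself. Outside the double knockout, Tlr1, Gas7 and Fgr reached at most 0.338, 0.765 and 0.862 FPKM in MEP. Like Bcl2a1b, they thus passed the filter of a mean of at least 1 FPKM in MEP only through the double knockout. Their likeness to Bcl2a1b rests in part on that filter. For Bcl2 they were Fli1 (0.223), Tec (0.252) and Fmnl1 (0.260), with 0.590 for Bcl2, and for Mcl1 they were Clk1 (0.302), Npc1 (0.303) and Cracr2a (0.303), with 0.538 for Mcl1. All values of this measure share the WT libraries and the 2 double knockout mice.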

How the data were processed

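Polyadenylated RNA of FACS-sorted LSK and MEP cells was sequenced on an Illumina instrument. The submitters' processing notes name mm9, STAR 2.5.1b, SAMtools 1.9 and Cufflinks 2.2.1. The authors deposited 1 table of FPKM per gene for each cell type, and the gene annotation and strand setting are not given in the sources used here. Both tables were normalized separately, so levels were not tested between them. Here log2(FPKM + 1) was fitted with limma 3.58.1 (trend) over all genes whose mean reached 1 FPKM, with 1 mean per genotype. A gene was called at p under 0.05 and a fold change above 1.5, and p-values were also adjusted over all genes (Benjamini-Hochberg). Fold changes on this scale understate changes of low genes. Shares of the summed FPKM were tested with exact permutation tests (scipy 1.17.1), paired by mouse between cell types as the labels name the mouse. The fit was tested on simulated data. The members and gene lists were chosen with earlier results of these data known. All 6 members are named, up to 4 called genes of each pathway list by size, and 3 genes per called member by likeness. Alternatives were another pseudocount, filter, normalization and variance model, adjusted p-values, a replicate block, a fit of only the 2 genotypes compared, and each library left out.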

Additional observations from a re-analysis of the deposited data

Results flagged for a closer look

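The effect of a genotype on a member differed between both cell types of the same mice in 4 cases, unadjusted, in limma's test of the difference itself, and in none after adjustment over all genes. These calls, among 5 members tested, stand beside 28.0% of 10773 genes for the double knockout effect, 10.8% for Bcor-/- and 0.873% for Dnmt3a-/-. After adjustment 18.6%, 0.251% and 0% of genes passed. The effect of the double knockout on Bcl2l1 was -1.83 on the log2(FPKM + 1) scale in LSK minus MEP (adjusted p = 0.104), with rises of 1.85 in LSK and 3.68 in MEP. That on Mcl1 was -0.84 (adjusted p = 0.0645), with 0.21 in LSK, where it did not pass, and 1.06 in MEP. For the Bcor knockout the difference for Mcl1 was -0.68 (adjusted p = 0.259), with -0.50 in LSK and 0.18 in MEP, neither of which passed. For the Dnmt3a knockout the difference for Mcl1 was 0.62 (adjusted p = 0.997), with 0.73 in LSK and 0.11 in MEP. The last 2 comparisons were added after the data were seen. Leaving out single mice gave -3.56 to -0.11 for Bcl2l1 and, for Mcl1, -1.23 to -0.45 in the double knockout, -0.80 to -0.52 in the Bcor knockout and 0.49 to 0.77 in the Dnmt3a knockout. The call was lost in 4, 2, 5 and 6 of the 10 cases, in this order.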

How the results depend on the processing

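Across the alternatives, 878 values of the log2 fold changes of members kept their direction and side of the threshold, 59 lost and 10 gained the threshold, and 20 changed sign. The cause of these changes was not tested, except where fewer libraries enter the fit. With the adjusted p, the number of members called was 0 in Dnmt3a-/- LSK, 1 in double knockout against Bcor-/- LSK and 0 in all 3 comparisons of effects between LSK and MEP. With a pseudocount of 0.1 it was 1 in double knockout against Bcor-/- LSK and 2 for the Dnmt3a effect between cell types. Without a filter on low values it was 1 for the double knockout effect between cell types, and with quantile normalization 1 in Bcor-/- LSK (Mcl1, lower). With 1 variance per genotype it was 1 in double knockout LSK against WT, Bcor-/- and Dnmt3a-/- alike, 2 in double knockout MEP against WT, 1 in Bcor-/- MEP, and 1, 2 and 2 for the effects of the double, Bcor and Dnmt3a knockout between cell types. Quantile normalization turned the double knockout LSK differences of Bcl2 and Mcl1 to -0.014 and -0.013.

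The deviations of same-numbered libraries of different genotypes correlated at -0.059 to 0.087 in LSK and at -0.19 to 0.34 in MEP, where those among Dnmt3a-/-, Bcor-/- and the double knockout were 0.12 to 0.21. Only WT and Dnmt3a-/- share 3 numbers, and 1 of their 3 correlations in MEP was -0.19, so the numbers were not taken to pair genotypes. With the replicate block, 0 members were called in Dnmt3a-/- LSK (Mcl1 lost) and 1 in Bcor-/- MEP (Bcl2, 0.93), 2 in double knockout LSK against WT (Bcl2a1d lost, 0.97), and Bcl2a1d in Bcor-/- LSK was -0.16. Mcl1 lost its call for the Bcor (-0.72) and Dnmt3a (0.62) effects between cell types, and 3 members were called for the double knockout effect. With only the 2 genotypes compared, Bcl2a1d in double knockout LSK against WT and Bcl2l1 in double knockout against Bcor-/- MEP lost their calls (limma adjusted p = 0.248 and 0.249). For the shares of LSK and MEP, which the mouse does pair, 0 members passed without the pairing (no replicate block) and 2 without the double knockout mice. With Bcl2a1b and Bcl2a1d left out of the sum, the Mcl1 share was 86.5% in Dnmt3a-/- LSK, 75.0% in Bcor-/- LSK and 82.3% in Dnmt3a-/- MEP.

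Leaving out 1 library at a time gave 2 to 5 members called in double knockout LSK against WT, 1 to 5 against Bcor-/- and 3 to 4 against Dnmt3a-/-, 3 to 5 in double knockout MEP against WT, 0 to 1 in each of the single knockouts against WT in LSK and MEP, 0 to 2 for the double and Dnmt3a knockout effects between cell types, 0 to 1 for the Bcor effect, and 1 to 2 members with a different share between LSK and MEP. It changed the sign of small differences from WT. In LSK these ran from -0.58 to 0.82 for Bcl2, -0.18 to 0.000506 for Bcl2l2 and -0.43 to 0.86 for Mcl1 in the double knockout. In Bcor-/- LSK they ran from -0.25 to 0.039 for Bcl2, -0.087 to 0.026 for Bcl2l2 and -0.32 to 0.46 for Bcl2a1d, and in Dnmt3a-/- LSK from -0.056 to 0.13 for Bcl2l1, -0.078 to 0.042 for Bcl2l2 and -0.032 to 1.32 for Bcl2a1b. In MEP they ran from -0.055 to 0.18 for Bcl2l1 and -0.55 to 0.085 for Bcl2a1b in Bcor-/-, and from -0.60 to 0.18 for Bcl2l2 in the double knockout. The LSK minus MEP difference in the share of Mcl1 ran from -0.392 to 4.43 percentage points. Where an arm is left with 1 library, that library is assumed to vary like the other groups. Depth was only estimated, from low values and relative to the deepest library, and Bcl2a1b and Bcl2a1d rest on few fragments.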
